A study of Mus musculus with 18 samples.

Results

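Aminoacyl-tRNA synthetases were examined in NMuMG cells exposed to halofuginone (HF). The rule named 34 genes by the symbol on the array: 19 cytosolic synthetases and 15 mitochondrial synthetases, whose symbols end in 2. Of these, 30 carried a probe, 16 cytosolic and 14 mitochondrial, among 16675 genes measured. Dars, Mars, Qars and Aars2 were not analysed here. Cars2 is listed on the array under its older name 2410044A07Rik. The symbols Vars2 and Hars2 have also been used for Vars and Dtd1, so these probes were read as the mitochondrial genes from the symbol alone. Eprs and Pars2, the synthetases for proline, were left out of both lists and are given once for comparison.

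NMuMG is an established mouse line of mammary gland epithelium, so every culture carries the same background. Cells freshly plated in complete medium with serum and insulin received HF or MAZ1310, each at 10 nM in acidified DMSO, and were harvested after 8 hr. MAZ1310 is HF with the piperidine nitrogen blocked by a carbamate and serves as the inactive analog, and no untreated cultures were measured. Each treatment had 3 cultures labelled as biological replicates, and each culture was hybridized to 3 technical arrays, 18 arrays in all.

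Synthetases join each amino acid to its tRNA, and cytosolic and mitochondrial translation mostly use separate enzymes, all encoded in the nucleus. In mammals, single genes for glycine (Gars) and lysine (Kars) supply both compartments. HF is known to occupy the prolyl site of Eprs; uncharged tRNA activates the kinase Gcn2, which raises translation of the transcription factor Atf4, and several cytosolic synthetase genes are known Atf4 targets that carry C/EBP-ATF response elements.

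Expression is given as log2 intensity, the median over the probes of a gene averaged over the technical arrays of a culture, and fold changes are HF minus MAZ1310 on that log2 scale. Array intensities do not order the levels of different genes, so only differences of one gene between treatments are compared. A gene was called where its adjusted p from limma, corrected over all 16675 genes, was under 0.05.

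HF raised the transcripts of 4 of the 16 cytosolic synthetases and of none of the 14 mitochondrial synthetases by this criterion. The genes called were Yars, Lars, Aars and Sars, which charge tyrosine, leucine, alanine and serine. No cytosolic member was called lower, and the other 12 did not pass in either direction. Of all genes, 1.45% were called higher and 1.57% lower. The median log2 fold change was 0.53 over the cytosolic members, from -0.34 to 1.30, and -0.02 over the mitochondrial members, from -0.63 to 0.65, beside -0.002 over all genes. MAZ1310 means ran from 8.23 (Iars) to 14.51 (Gars) in the cytosolic list and from 7.59 (Nars2) to 11.85 (Iars2) in the mitochondrial list. The lists overlapped but differed in brightness, and whether dim signal shaped the contrast was not tested. Whether a change reflects transcripts per cell or the share of cells that express the gene cannot be told apart in bulk RNA.

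**Figure D1:**
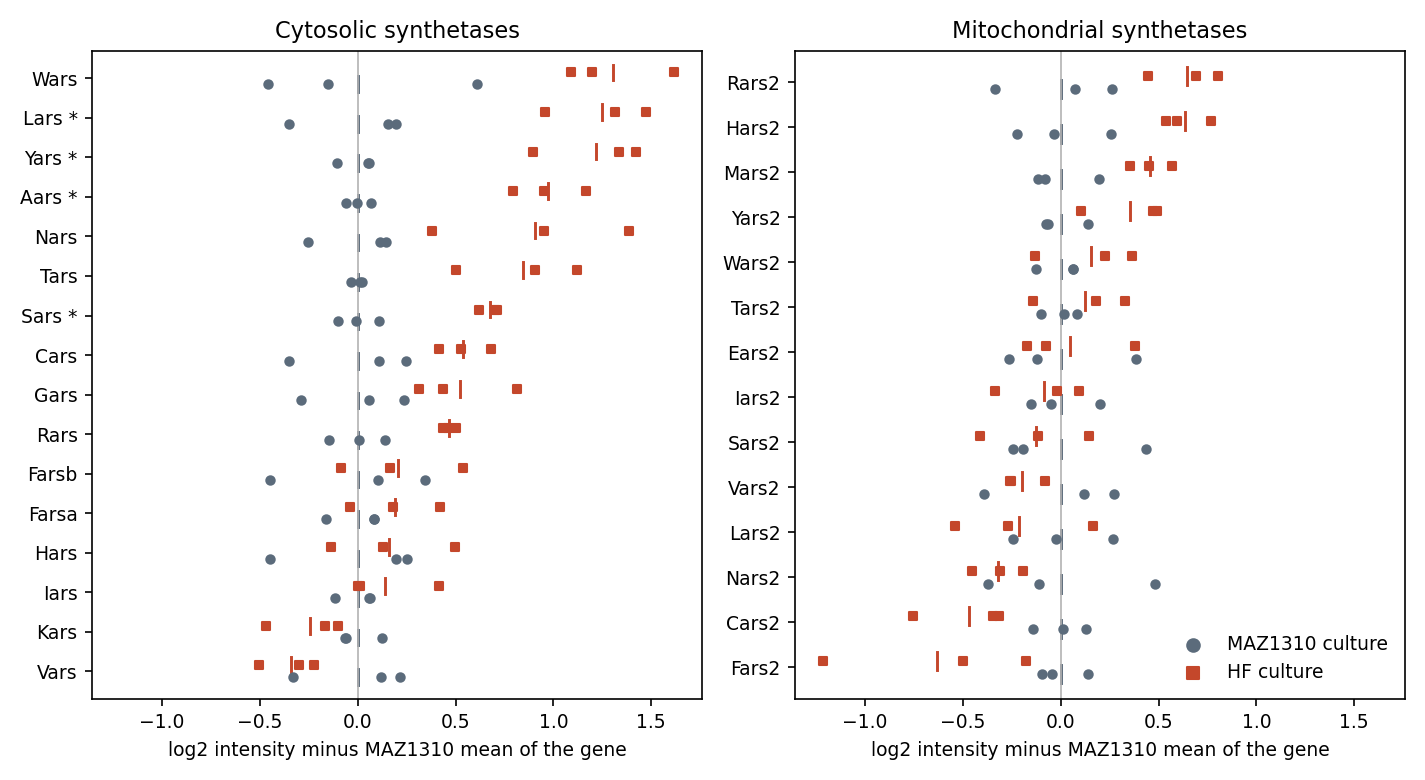
Log2 intensity of each culture minus the MAZ1310 mean of the same gene (x axis) for the 16 cytosolic (left) and 14 mitochondrial synthetases (right, y axis, ordered by fold change). Points are cultures (3 per treatment), upright bars are treatment means and an asterisk marks genes called by limma; the HF cultures of Yars, Lars, Aars and Sars lie clear of the MAZ1310 cultures, and the mitochondrial genes are spread on both sides of 0.

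Yars showed the clearest separation. Its log2 intensity was 11.51, 11.67 and 11.67 in the MAZ1310 cultures and 12.51, 13.04 and 12.95 in the HF cultures. All HF cultures lay above all MAZ1310 cultures, with 0.84 between the nearest values. The mean rose from 11.62 ± 0.0934 to 12.83 ± 0.284 (SD, n = 3 each), a log2 fold change of 1.22 ± 0.172 (SE) or 2.32-fold, with a limma adjusted p of 0.0217.

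Lars, a class I enzyme of the multisynthetase complex that has also been described as a leucine sensor for mTORC1, read 12.81, 13.35 and 13.31 with MAZ1310 and 14.47, 14.11 and 14.63 with HF. The lowest HF culture was 0.76 above the highest MAZ1310 culture. The log2 fold change was 1.25 ± 0.207 (SE), 2.37-fold, with a limma adjusted p of 0.0304.

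Aars, a class II enzyme, had the tightest control cultures of the 4 genes called, at 11.78, 11.85 and 11.72, against 12.95, 12.73 and 12.58 with HF. The groups did not overlap and stood 0.73 apart. Its log2 fold change was 0.97 ± 0.142 (SE), 1.96-fold, with a limma adjusted p of 0.0217.

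Sars, another class II enzyme, read 9.41, 9.30 and 9.21 with MAZ1310 and 10.01, 9.92 and 10.02 with HF. The 3 HF cultures lay within a narrow band above the controls. The log2 fold change was 0.68 ± 0.125 (SE), 1.6-fold, with a limma adjusted p of 0.0399.

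Wars, the tryptophan enzyme, had the highest fold change of the 30 members but did not pass, at 11.12, 10.05 and 10.35 with MAZ1310 and 12.12, 11.70 and 11.60 with HF. The HF cultures were all above the MAZ1310 cultures, while the MAZ1310 cultures themselves were spread with an SD of 0.551. The log2 fold change was 1.30 ± 0.289 (SE), 2.47-fold, with a limma adjusted p of 0.0642. The study selected Wars by fold change and q-value on these same samples, so its value is not independent evidence of direction. The threshold of the study was not the one used here. The study also reported Yars higher with HF by qRT-PCR on an independent set of samples. Without Wars the median of the remaining 15 cytosolic members was 0.52, and without Wars and Yars that of the remaining 14 was 0.49.

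These 5 genes stood high in the whole table, which follows from their choice by call or fold change. Only 0.528% of all genes had a higher fold change than Wars, 0.606% than Lars, 0.666% than Yars, 1.45% than Aars and 3.91% than Sars. For the other cytosolic members this share ran from 1.76% (Nars) to 86.6% (Vars). Wars did not pass the threshold, while Xpot and Eprs, described further on, did.

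**Figure D2:**
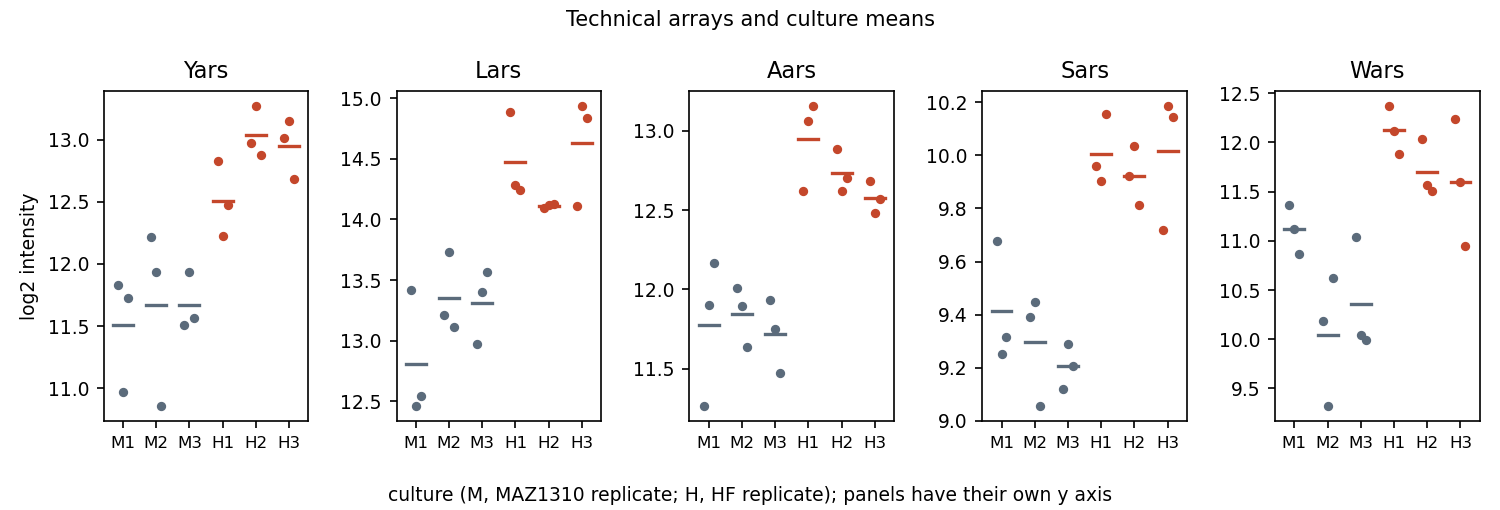
Log2 intensity (y axis, own scale per gene) on each of the 18 arrays for Yars, Lars, Aars, Sars and Wars. Points are technical arrays, bars are culture means, M1 to M3 are MAZ1310 cultures and H1 to H3 are HF cultures; arrays of one culture span over 1 log2 unit in 3 cultures of Wars and in 1 of Yars.

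The technical arrays of one culture differed from each other. The median SD over the members was 0.238 for single arrays of a culture and 0.227 for cultures within a treatment. Each culture value is a mean of 3 arrays, so these SDs are not like measures. In 14 of 180 sets of 3 arrays the values of a member spanned over 1 log2 unit, 10 of them in cytosolic genes. Wars in MAZ1310 replicate 2 read 10.19, 9.32 and 10.63 on its 3 arrays, and Yars in the same culture read 12.21, 11.93 and 10.86. The highest MAZ1310 array of Yars was thus close to its lowest HF array, which read 12.22.

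The calls depended on single cultures. With 1 culture left out, limma called Aars, Lars, Wars and Yars without MAZ1310 replicate 1, Aars and Tars without HF replicate 3, Yars without HF replicate 1, and 0 of the 16 without MAZ1310 replicate 2, MAZ1310 replicate 3 or HF replicate 2. In each of these last 3 fits 9 cytosolic members had an unadjusted p under 0.05 upward, and 1 downward without MAZ1310 replicate 2, against 13.2% to 13.7% of all genes in either direction.

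The next cytosolic members had fold changes near those called but did not pass. Tars, the threonine enzyme, read 12.83, 12.77 and 12.82 with MAZ1310 and 13.71, 13.93 and 13.31 with HF, a log2 fold change of 0.84 ± 0.177 (SE) with a limma adjusted p of 0.0554. Nars, the asparagine enzyme, read 12.96, 12.99 and 12.59 against 14.23, 13.79 and 13.22, a log2 fold change of 0.91 ± 0.263 (SE) with a limma adjusted p of 0.129. The HF cultures of both genes lay above the MAZ1310 cultures, and Nars spread more widely under HF, with an SD of 0.505, than under MAZ1310, with an SD of 0.222.

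Cars, Gars and Rars, the enzymes for cysteine, glycine and arginine, had log2 fold changes of 0.54, 0.52 and 0.47 with limma adjusted p of 0.197, 0.243 and 0.118. Their HF cultures also lay above the MAZ1310 cultures, by 0.17, 0.08 and 0.30. This made 10 of 16 cytosolic members whose HF cultures were all above the MAZ1310 cultures, against 11.2% of all genes, and the same 10 had an unadjusted p under 0.05, against 7.94% of all genes upward.

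Farsb and Farsa, the subunits of the cytosolic phenylalanine enzyme, had log2 fold changes of 0.20 and 0.19, and Hars and Iars, for histidine and isoleucine, 0.16 and 0.14. The cultures of these 4 genes overlapped between treatments, with limma adjusted p from 0.722 to 0.868. The 95% intervals reached 0.79 for Farsb and 0.73 for Hars, above the fold change of Sars, and 0.57 for Farsa and 0.51 for Iars, below it.

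Kars and Vars, for lysine and valine, were the cytosolic members with negative fold changes. Kars read 13.23, 13.24 and 13.42 with MAZ1310 and 12.83, 13.13 and 13.20 with HF, a log2 fold change of -0.25 ± 0.149 (SE) with a limma adjusted p of 0.530. Vars read 13.49, 13.05 and 13.59 against 13.08, 13.15 and 12.87, a log2 fold change of -0.34 ± 0.181 (SE) with a limma adjusted p of 0.435. The Kars cultures did not overlap but stood only 0.03 apart, those of Vars overlapped, and neither gene passed. All HF cultures were below all MAZ1310 cultures in 9.85% of all genes.

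Iars was the member whose probes disagreed most. One of its 3 probes read 12.59, 12.80 and 12.53 with MAZ1310 and 14.11, 13.62 and 13.69 with HF, and 2 others had MAZ1310 means of 8.23 and 7.52. Tested as separate probes over all 21973 on the array, the first had a log2 fold change of 1.17 ± 0.177 (SE) with a limma adjusted p of 0.0273, and the others -0.0042 and 0.13 with limma adjusted p of 0.998 and 0.893. The median over probes therefore placed Iars among the genes that did not pass, while its brightest probe alone did pass.

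Of the 9 members with more than 1 probe, the others differed less. Sars had a probe at 0.93 with a limma adjusted p of 0.0305 and a dimmer probe at 0.42 with 0.212. Both probes of Tars were near its gene value, at 0.87 and 0.81, and the first passed with a limma adjusted p of 0.0367. The probes of Farsa had opposite signs, -0.11 and 0.48, as did those of Ears2, -0.18 and 0.27, and of Vars2, -0.47 and 0.07, and none of these 6 passed. The probes of Cars2 lay furthest apart after those of Iars, at -0.83 for the brighter and -0.12 for the other, with limma adjusted p of 0.204 and 0.953. Those of Mars2 were at 0.38 and 0.54, and those of Wars2 at 0.05 and 0.26.

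**Figure D3:**
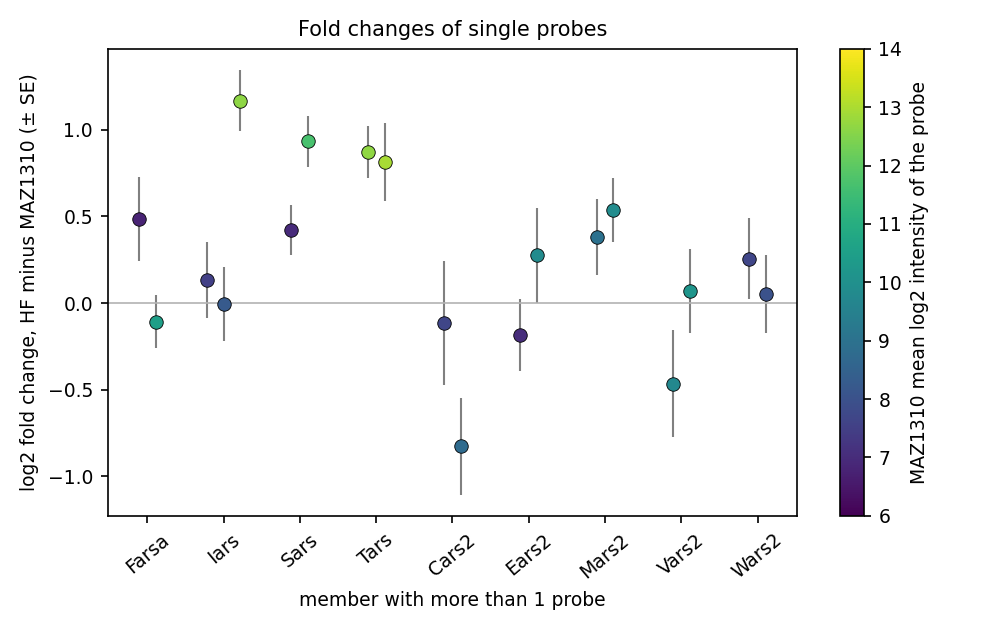
Log2 fold change of each probe (y axis, bars are ± SE from limma) for the 9 members with more than 1 probe, colored by the mean log2 intensity of the probe in the 3 MAZ1310 cultures. One Iars probe lies at 1.17 while the others lie near 0, and the Sars probes lie at 0.93 and 0.42.

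Promoter windows were searched for letters that match the C/EBP-ATF element. RefSeq windows of the mouse assembly GRCm38.p6, from 250 bases before to 50 after a transcript start, were given for 9 of the 16 measured cytosolic members and 13 of the 14 mitochondrial members. The element was searched on both strands as TGATGNAA, where N is any base, and in its stricter form TGATGCAA. The stretches around each match in a measured member are printed on the strand of the gene, with the matches in capitals.
Yars, chr4:129189843-129189922 (+): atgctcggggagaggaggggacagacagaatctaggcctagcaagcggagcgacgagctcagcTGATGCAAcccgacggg
Aars, chr8:111033712-111033861 (+): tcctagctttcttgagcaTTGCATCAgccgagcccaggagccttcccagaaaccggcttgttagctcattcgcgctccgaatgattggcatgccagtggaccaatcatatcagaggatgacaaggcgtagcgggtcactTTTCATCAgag
Tars, chr15:11399639-11399718 (-): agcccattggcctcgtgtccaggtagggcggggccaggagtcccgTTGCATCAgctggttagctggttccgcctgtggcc
Gars, chr6:55037941-55038020 (+): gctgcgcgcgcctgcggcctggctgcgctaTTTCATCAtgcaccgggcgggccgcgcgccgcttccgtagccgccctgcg
Iars, chr13:49682070-49682149 (+): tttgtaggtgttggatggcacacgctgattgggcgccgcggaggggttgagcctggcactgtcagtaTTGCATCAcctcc

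The loose form was found in 5 of the 9 cytosolic windows and in 0 of the 13 mitochondrial windows, against 3.97% of all 32851 windows. The strict form was found in 4 of the 9, against 0.89% of all windows. Yars and Aars, called higher, both held the strict form, at position 4 after the start in Yars and 112 bases before it in Aars, and Aars held a second, loose match at position 10. Tars and Iars held the strict form 15 bases before the start and at position 8. Gars held the loose form 30 bases before the start. These letters are a description of the windows and do not show binding.

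Sars, called higher at 0.68, had no match in its window, and neither had Farsa, Farsb and Kars, at 0.19, 0.20 and -0.25. Iars, with a match, had a gene value of 0.14 but a brightest probe at 1.17. Windows for Lars, Wars, Nars, Cars, Rars, Hars, Vars and Hars2 were not used here. The counts compare fewer than the measured members, and the fold changes of genes with and without a match overlap.

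**Figure D4:**
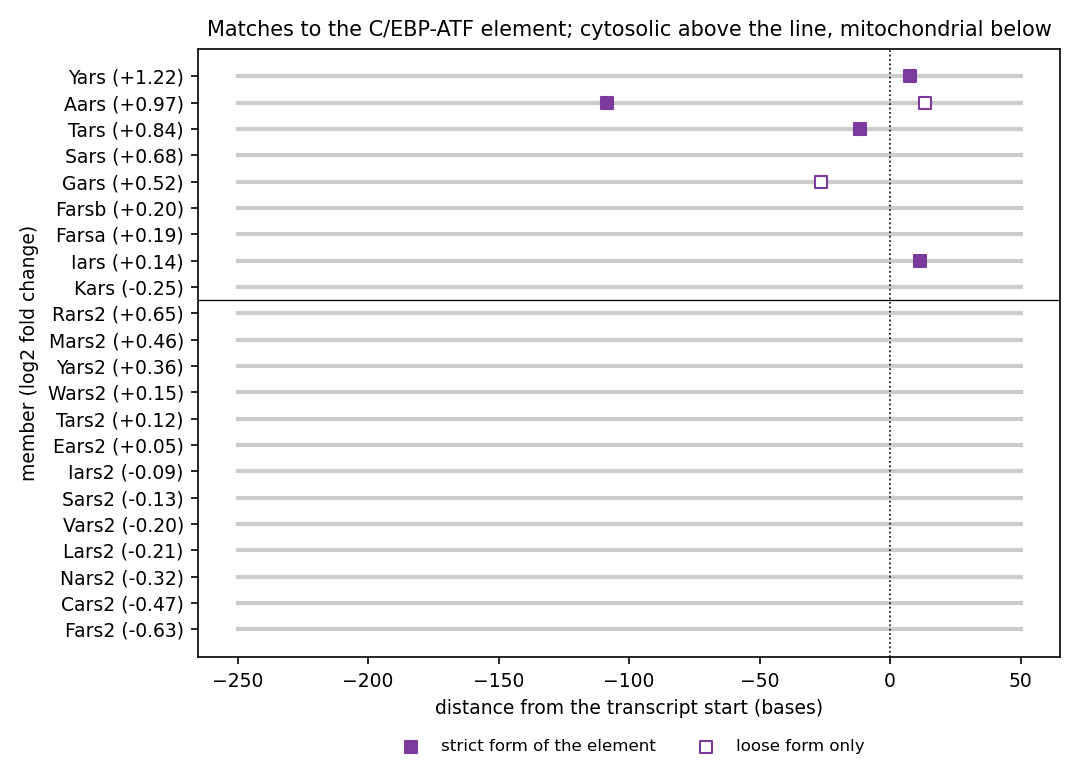
Centre of each match to the element relative to the transcript start in bases (x axis) for the 22 measured members with a promoter window (y axis, with the log2 fold change in brackets), cytosolic above the line and mitochondrial below. Filled squares are the strict form and open squares the loose form; matches occur in Yars, Aars, Tars, Gars and Iars and in none of the 13 mitochondrial windows.

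Mitochondrial synthetases showed no common direction. None of the 14 was called by limma in either direction, and 7 had fold changes above 0. An unadjusted p under 0.05 was found upward for 3 and downward for 2, against 7.94% and 8.53% of all genes. HF cultures were all above MAZ1310 cultures in 3 of them (Rars2, Hars2 and Mars2) and all below in 2 (Cars2 and Fars2), where 11.2% and 9.85% of all genes did so.

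Rars2, the mitochondrial arginine enzyme, read 9.75, 10.35 and 10.16 with MAZ1310 and 10.89, 10.53 and 10.78 with HF, a log2 fold change of 0.65 ± 0.191 (SE) with a limma adjusted p of 0.134. Hars2, for histidine, read 7.62, 8.10 and 7.81 against 8.61, 8.38 and 8.44, a log2 fold change of 0.63 ± 0.163 (SE) with a limma adjusted p of 0.0939. Mars2, for methionine, read 9.31, 9.35 and 9.62 against 9.99, 9.78 and 9.88, a log2 fold change of 0.46 ± 0.143 (SE) with a limma adjusted p of 0.160. The groups stood apart by 0.18, 0.28 and 0.16 in these genes. Hars2 lies next to Hars on chromosome 18 in the RefSeq gene table, and Hars had a log2 fold change of 0.16.

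At the other end, Fars2, the mitochondrial phenylalanine enzyme, read 10.18, 10.13 and 10.36 with MAZ1310 and 9.0, 10.05 and 9.72 with HF, a log2 fold change of -0.63 ± 0.261 (SE) with a limma adjusted p of 0.289. The value rested largely on HF replicate 1, and without that culture it was -0.34. Cars2, for cysteine, read 8.23, 8.08 and 8.34 against 7.90, 7.46 and 7.87, a log2 fold change of -0.47 ± 0.166 (SE) with a limma adjusted p of 0.207. Nars2, for asparagine, read 7.22, 7.48 and 8.07 against 7.14, 7.28 and 7.40, and these cultures overlapped, with a log2 fold change of -0.32 ± 0.226 (SE) and a limma adjusted p of 0.617. Without MAZ1310 replicate 3 its value was -0.08.

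The other 8 mitochondrial members lay between these. Yars2, Wars2, Tars2 and Ears2 had log2 fold changes of 0.36, 0.15, 0.12 and 0.05, and Iars2, Sars2, Vars2 and Lars2 of -0.09, -0.13, -0.20 and -0.21. The cultures overlapped in all 8, with limma adjusted p from 0.326 to 0.969.

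The enzymes for one amino acid were then compared between the compartments, to ask whether HF moved the cytosolic gene more than its mitochondrial counterpart. Of 12 amino acids with both measured, the cytosolic fold change was higher for 9, and for 8 the per-culture differences of all HF cultures lay above those of all MAZ1310 cultures. How often unrelated pairs of genes separate in this way was not counted. Brightness differed within some pairs, with MAZ1310 means of 13.16 for Lars and 9.57 for Lars2 but 11.62 for Yars and 11.65 for Yars2. Its part in the differences was not tested. The median difference between cytosolic and mitochondrial log2 fold changes was 0.82. With 3 cultures per treatment the two-sided exact permutation test cannot give a p under 0.1, and each of these 8 pairs had that p, 0.15 after adjustment over the 12 pairs, so no single pair passed.

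**Figure D5:**
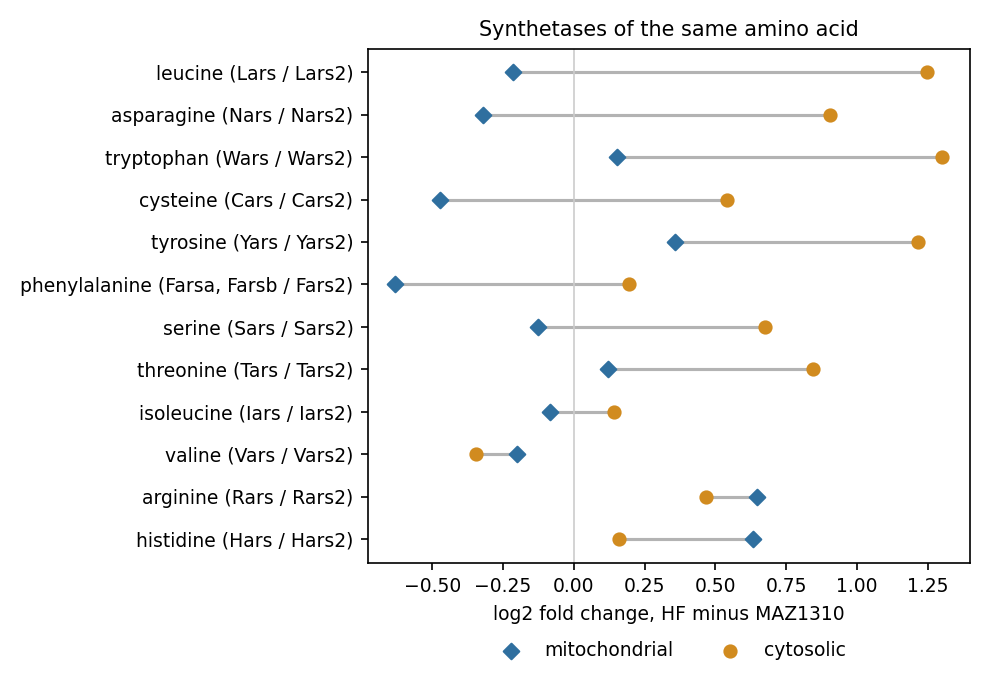
Log2 fold change (x axis) of the cytosolic (circles) and mitochondrial synthetase (diamonds) of each of 12 amino acids (y axis), joined by a line and ordered by the difference. The circle lies to the right for 9 amino acids, most widely for leucine, and to the left for valine, arginine and histidine.

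The leucine pair differed most, with Lars at 1.25 and Lars2 at -0.21, a difference of 1.46 ± 0.138 (SE). The differences for asparagine, tryptophan and cysteine were 1.23 ± 0.524, 1.15 ± 0.352 and 1.01 ± 0.234 (SE). Those for tyrosine, phenylalanine, serine and threonine were 0.86 ± 0.0782, 0.83 ± 0.280, 0.80 ± 0.238 and 0.72 ± 0.321 (SE). These are the 8 pairs whose cultures were separated, and in the phenylalanine pair most of the difference came from the lower value of Fars2.

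The remaining 4 pairs were not separated. Isoleucine differed by 0.23 ± 0.148 (SE) and valine by -0.14 ± 0.145 (SE). Iars entered the isoleucine pair as the median over its probes, at 0.14, while its brightest probe alone was at 1.17. For arginine and histidine the mitochondrial gene had the higher fold change, with differences of -0.18 ± 0.281 and -0.47 ± 0.279 (SE).

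Synthetases fall into structural classes that attach the amino acid through unrelated catalytic folds. The 7 measured class I enzymes had a median log2 fold change of 0.54 with 2 called (Lars and Yars), and the 9 class II enzymes of 0.52 with 2 called (Aars and Sars). All 3 members above a 2-fold change (Wars, Lars and Yars) were class I, where the highest log2 fold change was 1.30, and the highest in class II was 0.97. Of all 16675 genes, 217 rose above 2-fold, and limma called 1.45% higher. Of the 4 listed members measured in the multisynthetase complex, Iars, Kars, Lars and Rars, 1 was called. Their median was 0.30 with a range from -0.25 to 1.25. Eprs also belongs to the complex and was called, at 0.91, but is not counted here because it was left out of the lists. The 12 listed cytosolic members outside the complex had a median of 0.61 with 3 called. Iars is counted at 0.14, the median over its probes, while its brightest probe alone was at 1.17. The differences between these small groups were not tested.

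The shift of the cytosolic list was similar in each HF culture. Measured against the MAZ1310 mean of each gene, the median over the 16 cytosolic members was 0.56, 0.54 and 0.50 in the 3 HF cultures and 0.01, 0.02 and 0.06 in the MAZ1310 cultures. For the mitochondrial members the same medians were 0.13, -0.13 and -0.05 with HF and -0.09, -0.07 and 0.13 with MAZ1310, and the treatments overlapped. Over its MAZ1310 cultures each gene averages 0 by construction, so the MAZ1310 medians only describe their spread.

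Other genes of tRNA charging mostly did not pass. Of 18 such genes listed, 15 carried a probe, and their median log2 fold change was 0.25, with 11 above 0. Over all genes the median was -0.002, 49.6% were above 0, and limma called 1.45% higher and 1.57% lower. Among these 15, Xpot alone was called. Xpot is exportin-t, which carries tRNA from the nucleus to the cytoplasm. It read 10.29, 10.50 and 10.64 with MAZ1310 and 11.53, 11.58 and 11.84 with HF. Its cultures stood 0.89 apart, and its log2 fold change was 1.17 ± 0.154 (SE), 2.25-fold, with a limma adjusted p of 0.0188. Without any single culture other than MAZ1310 replicate 1 its limma adjusted p was above the threshold, up to 0.0840.

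The complex scaffolds Aimp1, Aimp2 and Eef1e1 had log2 fold changes of -0.13, 0.26 and 0.46, with limma adjusted p from 0.373 to 0.871. Ptrh2, a peptidyl-tRNA hydrolase, had the highest value among those that did not pass, 0.50 ± 0.402 (SE), with overlapping cultures and a limma adjusted p of 0.687. Trnt1, which adds the CCA end to tRNA, had 0.39, and Mtfmt, which formylates the mitochondrial initiator tRNA, -0.35, with limma adjusted p of 0.395 and 0.468.

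Among the proline enzymes, Eprs, which charges glutamate and proline in the cytosol, read 13.82, 14.05 and 14.11 with MAZ1310 and 14.78, 14.75 and 15.19 with HF and was called higher, at 0.91 ± 0.170 (SE) with a limma adjusted p of 0.0405. It was not called with any 1 culture left out, where the limma adjusted p ran from 0.0852 to 0.120, nor with the median over technical arrays, at 0.121. Pars2, its mitochondrial counterpart for proline, was at -0.08 with a limma adjusted p of 0.941. The windows of Eprs and Xpot held no match to the element.

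Marker genes were checked in the same cultures. The epithelial keratins Krt8 and Krt18 read 15.86 or more in every culture, near the upper limit of the scale, where a rise could hardly show. Cdh1 read between 12.69 and 14.22, Epcam 5.83 to 6.21 and Cldn3 6.99 to 7.45. The blood and endothelial markers Itgam, Pecam1 and Cd68 had MAZ1310 means of 9.01, 8.20 and 8.05, and Cdh5, Ptprc and Kdr of 7.49, 5.99 and 5.87. These intensities do not order the levels of different genes. Of 29 markers of epithelial, fibroblast, blood and endothelial cells and adipocytes, limma called 0. Among all genes, limma called 1.45% higher and 1.57% lower. An unadjusted p under 0.05 was found upward for 1 marker and downward for 2, against 7.94% and 8.53% of all genes. Log2 fold changes ran from -0.58 (Dsp) to 0.68 (Krt19) over the 11 epithelial markers, from -0.36 to 0.20 over the 8 fibroblast markers, from -0.45 to 0.08 over the 6 blood and endothelial markers, and from 0.02 to 0.17 over the 4 adipocyte markers. The part of other cell types in the synthetase values was not tested.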

How the data were processed

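RNA of NMuMG cells from 3 HF and 3 MAZ1310 cultures was hybridized by the authors to 1-color Phalanx mouse whole genome arrays, with 3 technical arrays per culture. The deposited values are Cy5 intensities on a linear scale, from 36.4 to 65535. The authors removed every probe that was negative or missing on at least 1 array, then applied quantile normalization to the other 21973; the scanner and background correction are not given in the sources used here. Quantile normalization removes a shift shared by most genes. Detection calls were not used here, and no probe was dropped for low signal. 0 columns lacked a sample, and 0 of 153 array pairs held identical values.

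Probes were named from the platform annotation: 21020 carried 1 symbol, 953 none and 0 several. Log2 intensities were summarised as the median over the probes of each of 16675 genes, and the technical arrays were averaged per culture (consensus correlation 0.289). Cultures are labelled biological replicates, and their number limits the precision. The test used limma 3.58.1, run in R 4.3.3 (a two-sided moderated test from lmFit and eBayes with a term for treatment alone, p adjusted by Benjamini-Hochberg and called under 0.05). The procedure was tested on simulated data. Probes were also tested singly, an alternative chosen after seeing the data. Pairs of synthetases were compared by an exact permutation test of the per-culture difference, adjusted over 12 pairs. The replicate numbers were not taken as pairs: deviations of same-numbered cultures correlated at 0.672, 0.0792 and 0.69.

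Values per culture were given for members past the threshold, for the 3 members of each compartment with the largest rises and falls, and for those whose probes differed by over 1 on the log2 scale. Tars and Nars were added after their values were seen. The members and lists were chosen with earlier results of these data known. Alternatives covered array scaling, dim probes, probe and array summaries, a random block of culture, a replicate block, eBayes options, q-values, gene symbols and leaving out each culture. Promoter windows are those of RefSeq for GRCm38.p6, matched by symbol, and 22 of 30 measured members had one.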

Additional observations from a re-analysis of the deposited data

How the results depend on the processing

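The count of cytosolic synthetases called higher, 4, was 2 with the median over technical arrays, 7 with a replicate block and 0 to 4 with 1 culture left out, and 4 or 5 under the other 7 alternatives. The count over all genes, 504, was 322 with the median over technical arrays, 1128 with all 18 arrays and culture as a random block, 1792 with the replicate block and 48 to 339 with 1 culture left out. Fewer samples enter the latter fits; the cause of the other differences was not tested. The replicate block called Aars, Lars, Nars, Sars, Tars, Wars and Yars. Each HF culture correlated best with the MAZ1310 culture of its own number, but MAZ1310 replicate 2 did so with HF replicate 3, at 0.265, which is at most a hint of pairing from the data and not the design. No mitochondrial gene was called under the block. There, 4 had an unadjusted limma p under 0.05 upward and 2 downward, against 26.2% of all genes in either direction. With all 18 arrays, 2 mitochondrial genes were called, Hars2 and Mars2. The accessory count, 1 (Xpot), was 0 to 1 with 1 culture left out. Aars and Yars were called in all 9 alternatives with every culture, Lars in 8, Sars in 6, Wars in 4, Tars in 2 and Nars and Iars in 1.

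The median log2 fold change of the cytosolic synthetases was 0.68 with the brightest probe of each gene, 0.47 with the median over technical arrays and 0.53 to 0.59 with 1 culture left out. Of the 12 pairs, 7 were separated with the cytosolic gene higher when the brightest probes were used, and 8 or 9 with 1 culture left out. Without MAZ1310 replicate 1 and without HF replicate 3, 1 pair was separated in the other direction.

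Signs turned for members whose fold change lay between -0.20 and 0.20. With the brightest probe Farsa was -0.11 and Vars2 0.068. Tested singly, one probe each of Farsa, Iars, Ears2 and Vars2 gave -0.11, -0.0042, -0.18 and 0.068. With 1 culture left out the range was -0.020 to 0.38 for Farsb, -0.063 to 0.31 for Hars, -0.12 to 0.24 for Ears2, -0.18 to 0.039 for Iars2, -0.26 to 0.091 for Sars2 and -0.26 to 0.15 for Pars2. Over all single members and alternatives, 463 values kept their direction and side of the threshold, 37 lost the call, 14 gained it and 17 turned sign.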
